A study of Drosophila melanogaster with 8 samples.

Results

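The mitochondrial respiratory chain is described here through 73 genes, which encode subunits of complexes I to V and were taken from 11982 genes measured in prepupae of Drosophila melanogaster. Members were chosen by name. A gene belonged when the array's annotation gave its probe set exactly 1 symbol and that symbol began with ND-, UQCR-, COX and a digit, ATPsyn or Sdh. Where a gene had several probe sets, the one with the highest mean over the 8 arrays represented it. By complex, the members were 32 genes of complex I, 7 of complex II, 6 of complex III, 14 of complex IV and 14 of complex V. Of the 73 genes, 51 were general subunits, 17 were paralogs whose symbol is a subunit's symbol followed by L, 4 were paralogs whose L is followed by a digit, and 1, Sdhaf3, encodes an assembly factor of complex II.

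The double mutants carried mutations in bap170 and bap180, and the wild type was the strain w1118. Neither the alleles nor the genetic background of the mutants is given in the sources used here. Bap170 and Bap180, the product of the gene now named polybromo, belong to the PBAP form of the Brahma chromatin remodelling complex. The 4 groups, each of 2 arrays, were double mutant males, wild type males, double mutant females and wild type females, all taken as white prepupae at 0 hours after puparium formation. Each array held the RNA of 1 whole animal, so the replicates are separate animals.

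Complex I (NADH dehydrogenase), complex II (succinate dehydrogenase), complex III (the cytochrome bc1 complex) and complex IV (cytochrome c oxidase) pass electrons from fuel molecules to oxygen along the inner mitochondrial membrane. Complex V (ATP synthase) uses the proton gradient that complexes I, III and IV build. Several nuclear subunit genes of Drosophila have a second copy, and many such copies are known for transcripts found mainly in the testis, where the mitochondria of developing sperm fuse and elongate beside the growing flagellum. In RNA of a whole animal, fewer cells of a type and less RNA per cell cannot be told apart.

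Values below are deposited array intensities on a log2 scale, called the log2 signal, and a difference of 1 is a doubling. Array medians lay between 4.80 and 5.13. Replicates correlated across probe sets at r = 0.977 in mutant males, 0.985 in wild type males, 0.988 in mutant females and 0.990 in wild type females. Bap170 was lower in the mutants by a log2 difference of -1.32 ± 0.12 (SE, n = 4 arrays per genotype, limma adjusted p = 0.00264), and polybromo by -1.63 ± 0.12 (adjusted p = 0.00121). Replicate 2 of the mutant males stood apart from the other males, as set out below with the genes it touches.

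The first comparison asked how the subunit genes differ between the sexes, as the mean over both genotypes. All 17 paralogs whose symbol ends in L were higher in males, by log2 differences of 0.73 (SdhAL) to 4.33 (COX4L) with a median of 2.13. Of the 4 numbered paralogs, COX6AL2, ND-51L1 and ND-51L2 were higher in males and COX7AL2 was not called. None of the 51 general subunits was called (limma, adjusted p under 0.05), and none reached an unadjusted p under 0.05. Their differences ran between -0.27 and 0.33, with a median of 0.01, and 95% confidence limits over all 51 lay between -0.74 and 0.68. Counted over all members, 20 of 73 genes were higher in males and 0 were lower. Among all 11982 genes, 13.9% were called in either direction, 11.4% higher in males and 2.5% lower, with a median difference of -0.11.

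The deposited arrays were not on a common median, and the scaling matters for the general subunits. Centring every array on its own median moved the median sex difference of all genes to -0.38, that of the general subunits to -0.26 and that of the 21 paralogs to 1.65. With that centring 20 members were higher in males and 7 general subunits were lower (ATPsyndelta, COX4, COX8, ND-51, ND-B12, ND-B14.5A and ND-B16.6, by log2 differences of -0.36 to -0.47). Quantile normalization and centring on the brighter probe sets gave general medians of 0.03 and -0.01 with 0 calls. Centring adds 1 constant to all genes of an array, so it left the gap between paralogs and general subunits as it was, while the sign of the general subunits' difference depends on the scaling chosen.

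**Figure D1:**
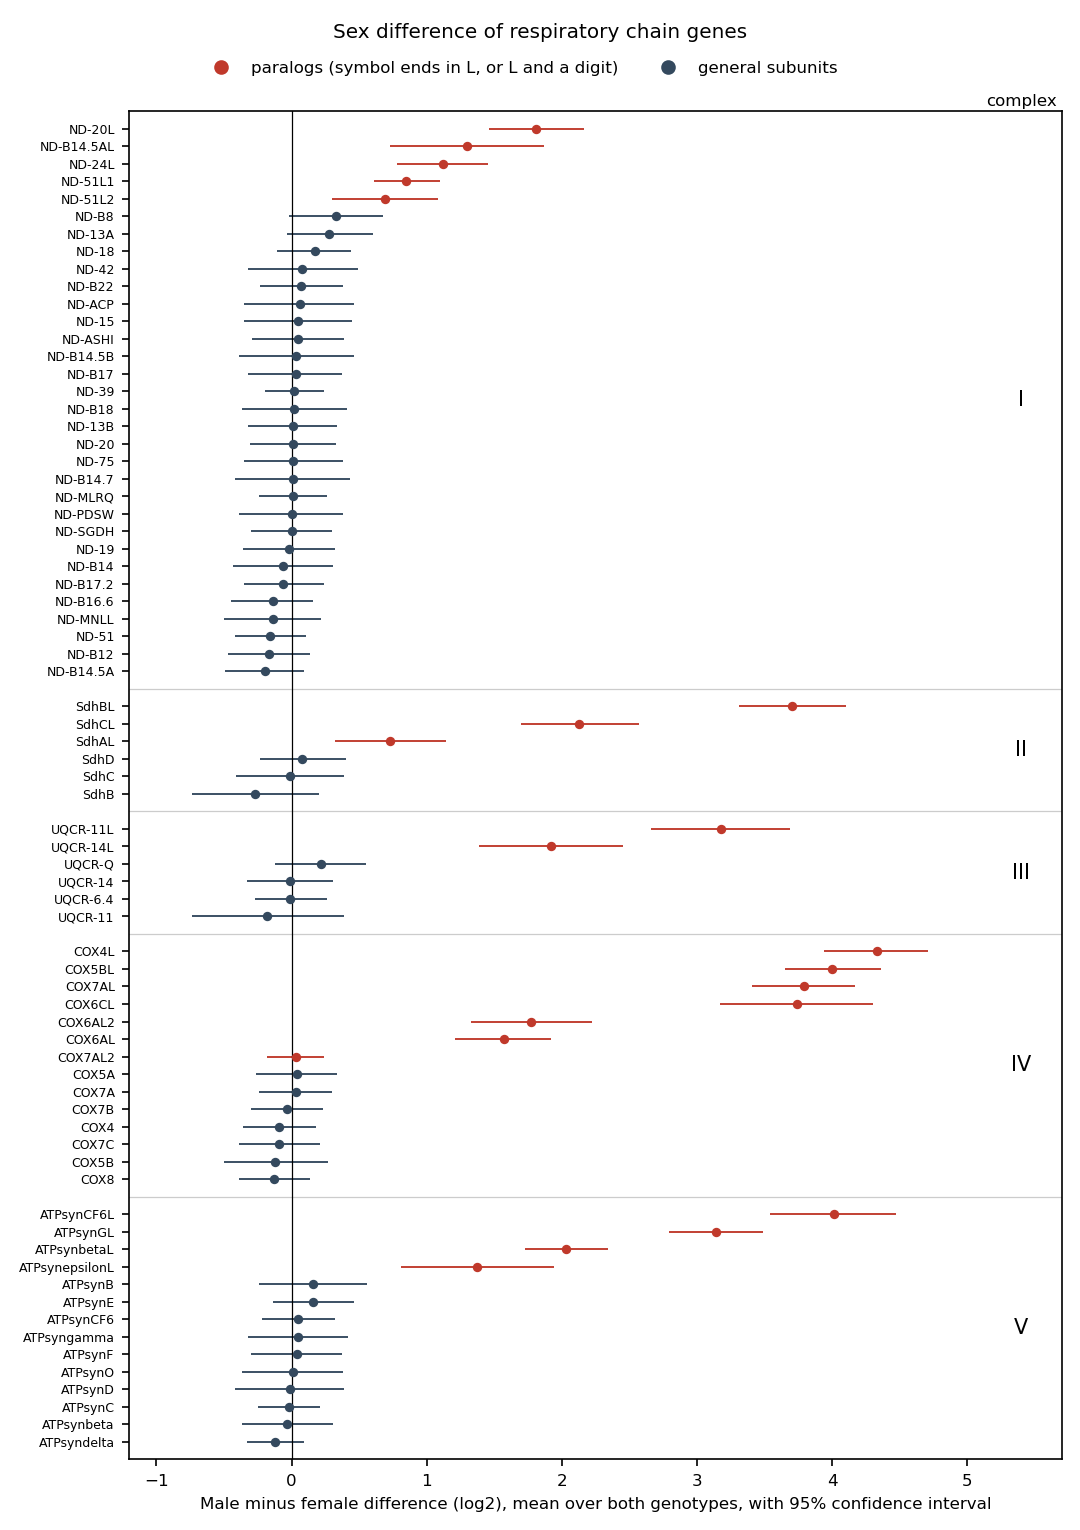
Male minus female difference (log2, mean over both genotypes) of 72 respiratory chain genes, ordered within complexes I to V, with 95% confidence intervals from limma. Paralogs are red and general subunits dark blue; the intervals of 20 of 21 paralogs lie to the right of 0, with differences up to 4.33 for COX4L, while the general subunits lie between -0.27 and 0.33.

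The paralog with the highest sex difference belonged to complex IV. This gene, COX4L, a copy of the gene for subunit 4, had a log2 signal of 8.78 and 8.10 in mutant males and 9.49 and 9.20 in wild type males, against 4.53 and 4.44 in mutant females and 4.60 and 4.70 in wild type females. All 4 males lay far above all 4 females, and both mutant males lay below both wild type males. The sex difference was 4.33 ± 0.16 (SE, n = 4 arrays per sex, limma adjusted p = 6.02e-06). The females lay below their array medians, where background compresses differences, so no fold is given for this gene or the other paralogs.

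COX5BL, a copy of the subunit 5B gene, read 7.99 and 7.43 in mutant males and 7.82 and 8.15 in wild type males, against 3.73 and 3.85 in mutant females and 3.93 and 3.85 in wild type females. Here the males of the 2 genotypes overlapped, while the sexes did not (4.0 ± 0.15, adjusted p = 5.75e-06). In COX7AL, a copy of the subunit 7A gene, mutant males had 7.89 and 7.15 and wild type males 8.39 and 8.46, against 4.2 and 4.16 in mutant females and 4.21 and 4.17 in wild type females. The females were nearly level with one another and both mutant males were below both wild type males, with a sex difference of 3.79 ± 0.16 (adjusted p = 1.06e-05). COX6CL, a copy of the subunit 6C gene cype, gave 7.67 and 6.50 in mutant males and 8.27 and 8.25 in wild type males, against 3.86 and 3.99 in mutant females and 4.03 and 3.88 in wild type females. Replicate 2 of the mutant males was the lowest of the males by more than 1 log2 unit, and still far above every female (3.74 ± 0.24, adjusted p = 6.55e-05).

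Both copies of levy, the gene for subunit 6A, differed less between the sexes. COX6AL measured 5.85 and 5.49 in mutant males and 6.38 and 6.43 in wild type males, against 4.43 and 4.39 in mutant females and 4.81 and 4.25 in wild type females (1.57 ± 0.15, adjusted p = 0.000453). COX6AL2 measured 5.84 and 5.12 in mutant males and 6.32 and 6.18 in wild type males, against 4.33 and 3.90 in mutant females and 3.92 and 4.22 in wild type females (1.77 ± 0.19, adjusted p = 0.000787). In both genes the sexes did not overlap and the mutant males were the lower males. COX7AL2, the other copy of the subunit 7A gene, was the exception among the paralogs, with 3.90 and 3.93 in mutant males and 4.11 and 4.02 in wild type males, against 4.04 and 3.97 in mutant females and 4.0 and 3.84 in wild type females. Its sexes overlapped, its sex difference was 0.03 ± 0.09 (adjusted p = 0.853), and all 8 values lay below the array medians, where background compresses differences.

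Complex V held the paralog with the next highest difference. This gene, ATPsynCF6L, a copy of the gene for coupling factor 6, a part of the peripheral stalk, had 8.19 and 7.29 in mutant males and 8.21 and 8.41 in wild type males, against 4.2 and 3.97 in mutant females and 3.99 and 3.92 in wild type females. Its sex difference of 4.01 ± 0.20 (adjusted p = 2.06e-05) was close to that of COX5BL, and mutant male 2 was the lowest male. ATPsynGL, a copy of the gene for the membrane subunit g, had 8.07 and 7.56 in mutant males and 8.13 and 8.54 in wild type males, against 4.86 and 4.86 in mutant females and 4.98 and 5.04 in wild type females (3.14 ± 0.15, adjusted p = 1.7e-05). The sexes were again apart, with the mutant males below the wild type males.

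ATPsynbetaL, a copy of the gene for the catalytic beta subunit, ran the other way between genotypes, with 6.74 and 6.49 in mutant males and 6.04 and 6.51 in wild type males, against 4.47 and 4.49 in mutant females and 4.32 and 4.37 in wild type females. The genotypes overlapped in males, and males exceeded females by 2.03 ± 0.13 (adjusted p = 6.44e-05). ATPsynepsilonL, a copy of the epsilon subunit gene sun, had 6.50 and 6.32 in mutant males and 6.59 and 7.69 in wild type males, against 5.38 and 5.01 in mutant females and 5.48 and 5.72 in wild type females. The high value of wild type male 2 widened its spread, and the sex difference was 1.37 ± 0.24 (adjusted p = 0.0101).

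In complex II, SdhBL, a copy of the gene for the iron-sulfur subunit, had 7.89 and 7.17 in mutant males and 8.10 and 8.30 in wild type males, against 4.35 and 4.12 in mutant females and 4.07 and 4.09 in wild type females. It differed by 3.70 ± 0.17 between the sexes (adjusted p = 1.37e-05). SdhCL, a copy of the gene for a membrane anchor subunit, had 6.32 and 5.55 in mutant males and 6.76 and 6.39 in wild type males, against 4.14 and 4.07 in mutant females and 4.04 and 4.22 in wild type females (2.13 ± 0.19, adjusted p = 0.000275). For both genes the mutant males were the lower males and the females lay within a narrow band. SdhAL, a copy of the flavoprotein subunit gene, had 4.91 and 4.79 in mutant males and 5.06 and 4.34 in wild type males, against 4.13 and 4.07 in mutant females and 4.15 and 3.83 in wild type females. It had the smallest difference of the 17 genes, 0.73 ± 0.17 (adjusted p = 0.0408), and its call did not hold under every alternative setting.

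Both paralogs of complex III were called. UQCR-11L had 7.21 and 6.40 in mutant males and 7.39 and 7.77 in wild type males, against 4.29 and 3.86 in mutant females and 3.77 and 4.15 in wild type females (3.18 ± 0.22, adjusted p = 8.86e-05). UQCR-14L had 6.67 and 5.74 in mutant males and 6.30 and 6.91 in wild type males, against 4.62 and 4.54 in mutant females and 4.40 and 4.39 in wild type females (1.92 ± 0.22, adjusted p = 0.00128). Both are copies of genes for small nuclear subunits. The sexes did not overlap in either gene, and mutant male 2 was the lowest male in both.

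Complex I had the lowest median sex difference among its paralogs, 1.3 over 3 L paralogs, against 2.13 in complex II, 2.55 in complex III, 3.79 in complex IV and 2.58 in complex V. These medians rest on 2 to 5 genes each, and the differences between complexes were not tested. ND-20L, a copy of the gene for an iron-sulfur subunit near the ubiquinone site, had 7.23 and 6.77 in mutant males and 7.36 and 7.71 in wild type males, against 5.56 and 5.29 in mutant females and 5.56 and 5.42 in wild type females (1.81 ± 0.15, adjusted p = 0.000196). ND-24L, a copy of a gene for a subunit of the NADH-oxidising arm, had 5.51 and 5.2 in mutant males and 5.93 and 5.42 in wild type males, against 4.57 and 4.47 in mutant females and 4.26 and 4.30 in wild type females (1.12 ± 0.14, adjusted p = 0.00181). In both genes every male lay above every female.

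ND-B14.5AL, a copy of an accessory subunit gene, had 5.64 and 4.52 in mutant males and 5.61 and 5.88 in wild type males, against 4.27 and 3.93 in mutant females and 4.15 and 4.10 in wild type females. Mutant male 2 lay close above the females and apart from the other males, and the sex difference was 1.3 ± 0.24 (adjusted p = 0.0136). The 2 copies of ND-51, the gene for the NADH-binding flavoprotein, lay below the array medians in females. In males ND-51L1 lay above the array medians and ND-51L2 below them. ND-51L1 had 5.58 and 5.43 in mutant males and 5.39 and 5.15 in wild type males, against 4.51 and 4.51 in mutant females and 4.66 and 4.47 in wild type females (0.85 ± 0.10, adjusted p = 0.00157). ND-51L2 had 5.01 and 4.29 in mutant males and 4.87 and 4.68 in wild type males, against 4.03 and 4.01 in mutant females and 3.95 and 4.10 in wild type females (0.69 ± 0.17, adjusted p = 0.0431). The sexes were apart in both, but the call of ND-51L2 was lost under 8 alternatives.

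**Figure D2:**
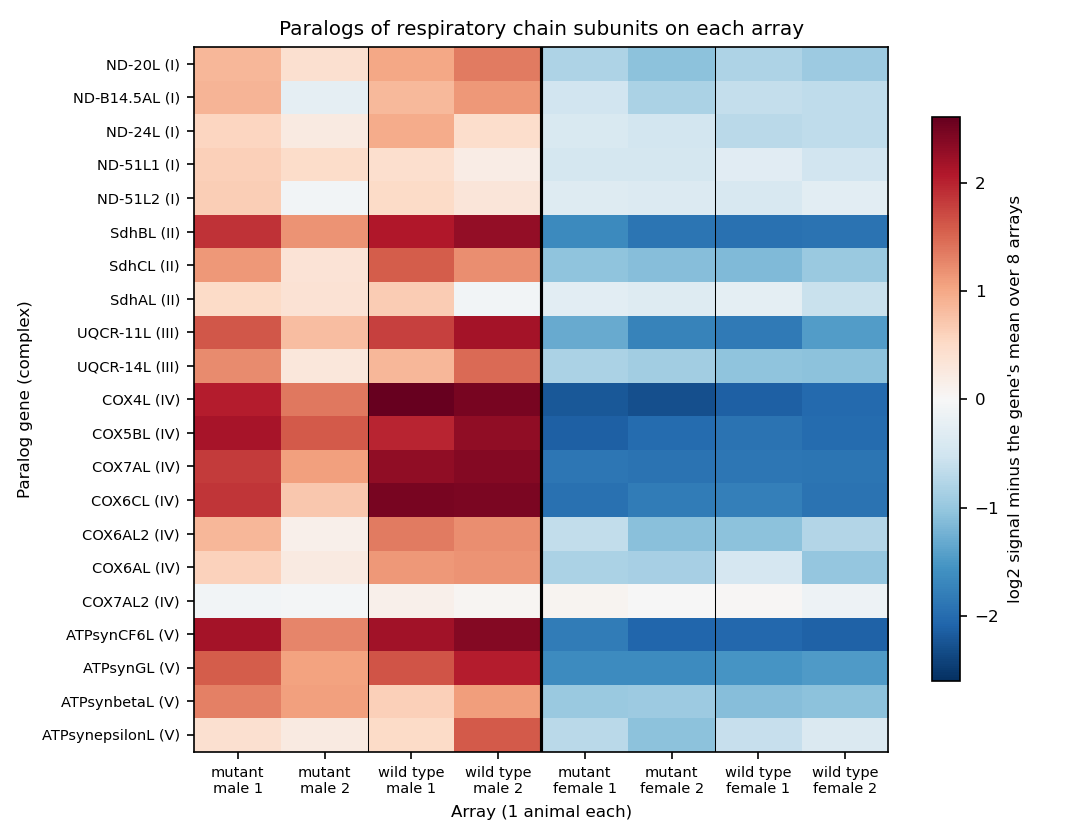
Log2 signal of the 21 paralogs (rows, with their complex) on each of the 8 arrays (columns), shown as the deviation from each gene's mean over 8 arrays. All paralogs but COX7AL2 are above their mean (red) in most males and below it (blue) in every female; mutant male 2 is paler than mutant male 1 in 20 of 21 genes.

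Males and females did not overlap in 20 of the 21 paralogs and in 0 of the 51 general subunits. Of all genes, 12.4% had every male above every female. The female log2 signals of the paralogs lay between 3.73 and 5.72, and 18 of the 21 female means were below the median of the female arrays (4.80 to 4.87), a range in which background compresses differences.

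The sex difference was present within each genotype. Among double mutants, 15 members were higher in males, 13 of them among the 17 L paralogs, against 7.98% of all genes. ATPsynepsilonL, ND-24L, ND-B14.5AL and SdhAL were the L paralogs not called there (adjusted p = 0.0597 to 0.202), with differences of 0.75 to 1.21. Among wild type animals, 18 members were higher in males, 16 of them L paralogs, against 9.86% of all genes. SdhAL was the exception (0.71 ± 0.24, adjusted p = 0.161). COX4L differed between the sexes by 3.96 ± 0.23 in double mutants and by 4.69 ± 0.23 in wild type (n = 2 arrays per sex in each). No general subunit was called in either genotype, and 1 reached an unadjusted p under 0.05 in wild type.

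Each paralog was also set against its parent gene on the same array, as the paralog's log2 signal minus the parent's. This ratio compares the sexes and gives no level of the one gene relative to the other, since signals of different probe sets are not on 1 scale. Of the 21 paralogs, 18 had a measured parent, and the sex difference of no parent was called, with differences of -0.27 (SdhB) to 0.05 (ATPsynCF6). The parent UQCR-11 had log2 signals of 4.37 to 5.47, near the array medians, where background compresses differences. In 16 of 18 pairs the ratio of every male exceeded that of every female. The two-sided exact permutation p was 0.0286 in these, the smallest that 4 against 4 arrays can give. As the parents differed little between the sexes, the ratios largely repeat the paralogs' own sex differences and are no separate support. The log ratio of COX4L to COX4 was -2.37 ± 0.60 in males and -6.79 ± 0.14 in females (SD, n = 4 each), a difference of 4.42. For SdhBL and SdhB it was -1.2 ± 0.69 in males and -5.17 ± 0.36 in females, a difference of 3.97. For ND-51L2 and ND-51 the sexes overlapped (difference 0.85, exact p = 0.0571), as they did for COX7AL2 and COX7A (difference -0.01, exact p = 1.0). COX5B and COX5BL lie 2 genes apart in the Release 6 gene order, and COX7A and COX7AL lie 3 apart. In both cases the L gene was called for sex and its close neighbour was not.

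By complex, the median sex difference of the general subunits was 0.01 in complex I, -0.01 in complex II, -0.01 in complex III, -0.09 in complex IV and 0.02 in complex V. These medians rest on 27, 3, 4, 7 and 10 genes. COX4, the parent of COX4L, had 11.23 and 11.22 in mutant males and 11.13 and 11.49 in wild type males, against 11.17 and 11.40 in mutant females and 11.40 and 11.47 in wild type females. SdhB, which showed the most negative sex difference of the general subunits, had 8.88 and 9.36 in mutant males and 8.66 and 9.34 in wild type males, against 9.0 and 9.45 in mutant females and 9.34 and 9.53 in wild type females. In both genes the sexes overlapped, and in SdhB the spread within each male group exceeded the difference between the sexes (-0.27 ± 0.20, adjusted p = 0.418). ND-B8, an accessory subunit gene of complex I with the most positive difference, had 4.02 and 3.90 in mutant males and 4.01 and 4.61 in wild type males, against 3.67 and 3.86 in mutant females and 3.92 and 3.77 in wild type females (0.33 ± 0.15, adjusted p = 0.225). A single wild type male stood above the rest, and all 8 values lay below the array medians, where background compresses differences.

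Markers of the testis moved with the paralogs. Of 28 listed testis and spermatocyte markers 27 were measured, and 24 were higher in males, by a median of 2.31 over the 27. Their summed intensity (linear scale) was 11045 and 7190 in mutant males and 15734 and 12999 in wild type males, against 718 and 673 in mutant females and 743 and 787 in wild type females. The summed intensity of the 21 paralogs was 2948 and 1877 in mutant males and 3517 and 3841 in wild type males, against 468 and 425 in mutant females and 456 and 454 in wild type females. In both sums mutant male 2 was the lowest male. The part of testis RNA in the sex difference of the paralogs was not tested.

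The second comparison asked how the double mutants differ from wild type. Taken as the mean over both sexes, this difference was called in 0 of 73 members (limma, adjusted p under 0.05). Of all genes 3.66% were called, 1.68% higher and 1.98% lower in the mutants. At an unadjusted p under 0.05 there were 5 of 73 members, a smaller share than the 2046 of all 11982 genes. All 5 were L paralogs with lower means in mutants. The general subunits had a median difference of -0.12, with 44 of 51 negative and a range of -0.30 to 0.12, and the median of all genes was -0.01. Their 95% confidence limits lay between -0.70 and 0.68.

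By complex, the median genotype difference of the general subunits was -0.13 in complex I (23 of 27 negative), -0.10 in complex II (3 of 3), -0.02 in complex III (2 of 4), -0.06 in complex IV (6 of 7) and -0.16 in complex V (10 of 10). ND-15, a small complex I subunit gene, had the lowest difference, with 10.14 and 9.88 in mutant males against 10.05 and 10.55 in wild type males, and 9.69 and 10.21 in mutant females against 10.18 and 10.35 in wild type females. The genotypes overlapped in both sexes (-0.30 ± 0.17 over both sexes, adjusted p = 0.562). ATPsyndelta, a subunit gene of the ATP synthase central stalk, had 9.54 and 9.69 in mutant males against 9.88 and 9.88 in wild type males, and 9.82 and 9.80 in mutant females against 9.90 and 9.95 in wild type females. Every mutant value lay below every wild type value (-0.19 ± 0.09), and its adjusted p of 0.433 was the lowest among the general subunits.

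In SdhD, the other membrane anchor gene of complex II, the difference was -0.22 ± 0.13 (adjusted p = 0.615). In UQCR-6.4, a small subunit gene of complex III, it was -0.16 ± 0.11 (adjusted p = 0.673). COX8 of complex IV had -0.13 ± 0.11 (adjusted p = 0.797) and COX4 -0.12 ± 0.12 (adjusted p = 0.825), and COX7A had 0.07 ± 0.11 (adjusted p = 0.924). ATPsynbeta, the catalytic subunit gene of complex V, had 11.46 and 11.99 in mutant males against 11.78 and 11.50 in wild type males, and 11.63 and 11.65 in mutant females against 11.88 and 11.69 in wild type females, with overlap in males and a difference of -0.03 ± 0.14 (adjusted p = 0.985). Sdhaf3, the assembly factor, had 6.24 and 5.83 in mutant males against 6.06 and 6.94 in wild type males, and 5.59 and 6.02 in mutant females against 5.69 and 6.15 in wild type females (-0.29 ± 0.23, adjusted p = 0.763). SdhB lies 37 genes from Bap170 in the Release 6 gene order and differed by -0.04 ± 0.20 (adjusted p = 0.982).

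The general subunits moved together from array to array. Their median deviation from each gene's mean over 8 arrays was 0.00 and -0.05 in mutant males and -0.17 and 0.23 in wild type males, and -0.29 and 0.09 in mutant females against 0.03 and 0.15 in wild type females. Mutant female 1 was the lowest of the 8 arrays for 30 of 51 general subunits, and wild type male 1 for 16, with no such count over all genes. The 2 arrays of wild type males thus differed more than the genotypes did. The 9384 probe sets with the highest means deviated by 0.04 and 0.04 in mutant males and by -0.20 and 0.00 in wild type males, and by -0.12 and 0.07 in mutant females against 0.05 and 0.08 in wild type females, so 2 of the arrays were low on both measures. Without mutant female 1 the median genotype difference of the general subunits was -0.03, with 31 of 51 negative. Without wild type male 1 it was -0.22, with 46 negative.

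**Figure D3:**
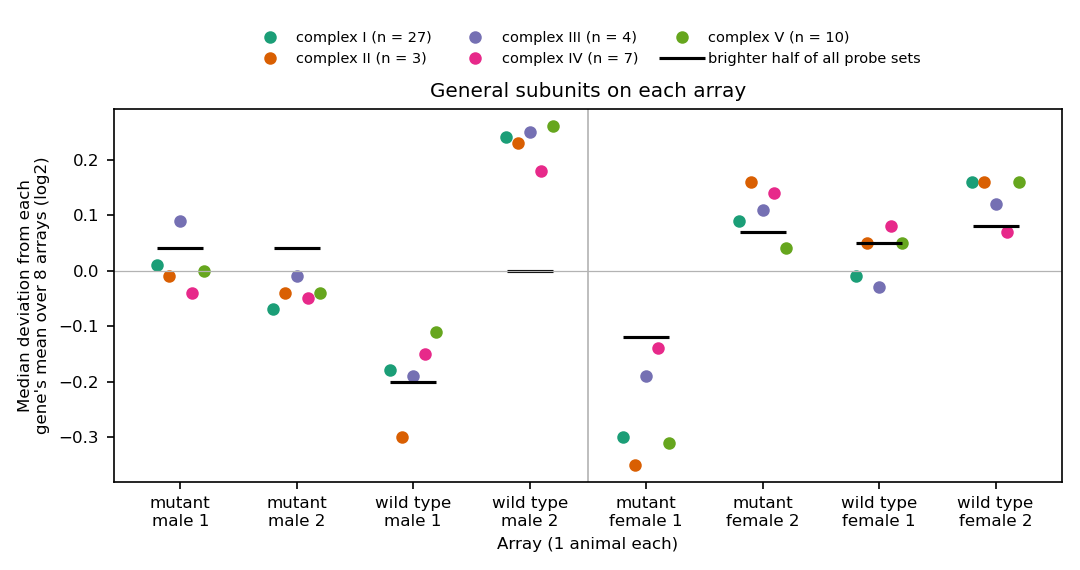
Median deviation (log2) of the general subunits of complexes I to V from each gene's mean over 8 arrays, for each array, with the same for the 9384 brighter probe sets as a black bar. The complexes lie close together on each array; mutant female 1 and wild type male 1 are low for all 5 complexes, and wild type male 2 is high.

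Within females, no member was called for the genotype and none reached an unadjusted p under 0.05, against 1.22% of all genes called. The general subunits had a median difference of -0.18, with 47 of 51 negative, and the paralogs of -0.01, with 12 of 21 negative. The female difference of the general subunits was -0.01 without mutant female 1. For the paralogs in females, centring on the brighter probe sets turned the median to 0.07. COX4L differed between mutant and wild type females by -0.17 ± 0.23, with 95% confidence limits of -0.72 and 0.38, and COX7AL by -0.01 ± 0.23, with limits of -0.55 and 0.53.

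Within males, no member was called either, against 1.36% of all genes, 0.759% of them lower in mutants. An unadjusted p under 0.05 was reached by 10 of 73 members, a smaller share than the 2075 of all 11982 genes. These 10 were 9 L paralogs and COX6AL2, all with lower means in mutant males. The 21 paralogs had a median difference of -0.57, with 18 negative, while the general subunits had -0.05, with 32 of 51 negative, and all genes had 0.02. The lowest values were in complex IV, whose 5 L paralogs had a median of -0.90. Referring to the values given above, COX6CL differed by -1.17 ± 0.34 (SE, n = 2 arrays per genotype, adjusted p = 0.21), COX7AL by -0.91 ± 0.23 (adjusted p = 0.162) and COX4L by -0.90 ± 0.23 (adjusted p = 0.166). By complex, the median over the L paralogs was -0.53 in complex I, -0.64 in complex II, -0.59 in complex III and -0.55 in complex V. SdhBL differed by -0.67 ± 0.24 (95% confidence limits -1.23 and -0.11, adjusted p = 0.297), UQCR-11L by -0.77 ± 0.31 (limits -1.49 and -0.05, adjusted p = 0.348) and ND-20L by -0.53 ± 0.21 (limits -1.02 and -0.04, adjusted p = 0.348). In the opposite direction lay ATPsynbetaL (0.34 ± 0.18, adjusted p = 0.501), ND-51L1 (0.24 ± 0.15, adjusted p = 0.582) and SdhAL (0.15 ± 0.24, adjusted p = 0.889).

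Both mutant males lay below both wild type males in 13 of 21 paralogs (61.9%) and in 4 of 51 general subunits (7.84%), against 19.4% of all genes. The same held for 17 of 27 testis markers (63.0%) and for 46.4% of the 1344 other genes that were higher in males. The testis markers had a median difference of -0.48 between mutant and wild type males, with 22 of 27 negative, 12 at an unadjusted p under 0.05 and 0 called. The other genes higher in males had a median of -0.39, with 1146 of 1344 negative. The part of testis RNA in the paralogs' genotype difference was not tested.

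**Figure D4:**
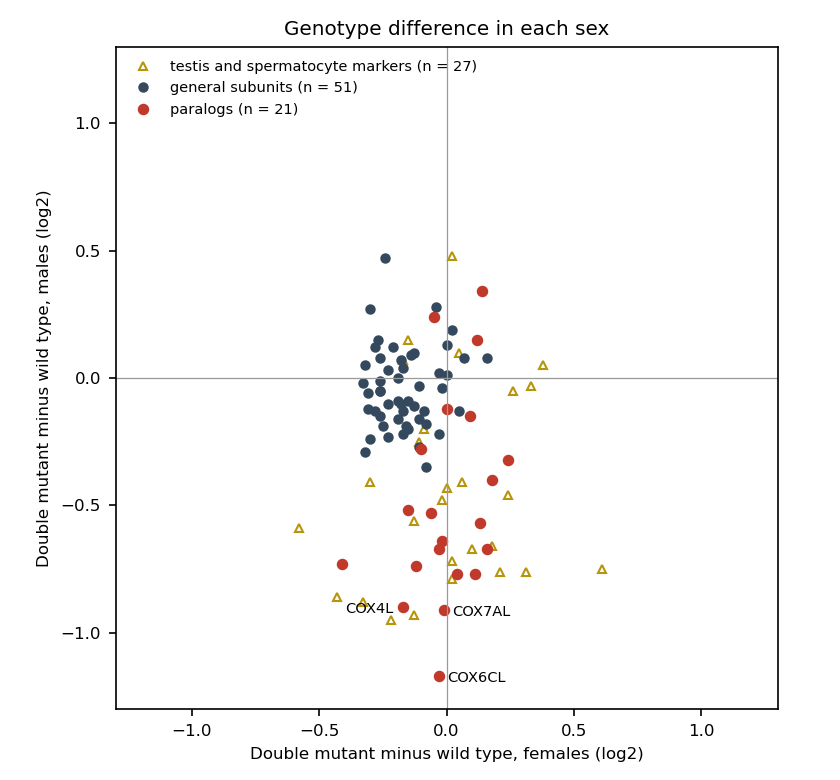
Genotype difference (double mutant minus wild type, log2) in females on the horizontal axis and in males on the vertical axis, for 27 testis and spermatocyte markers (open triangles), 51 general subunits (dark blue) and 21 paralogs (red). On the male axis 18 of 21 paralogs and 22 of 27 testis markers lie below 0, and on the female axis 47 of 51 general subunits do.

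A single array carried much of this difference. Mutant male 2 lay below mutant male 1 in 20 of 21 paralogs, in 24 of 27 testis markers and in 91.2% of the 1344 other genes higher in males, against 51.2% of all genes. It was the lowest of the 4 males in 17 of 21 paralogs (81.0%), in 19 of 27 testis markers (70.4%) and in 78.6% of the 1344 other genes. The median difference between replicates 2 and 1 over the paralogs was -0.68 in mutant males and 0.07 in wild type males. Without mutant male 2 the median genotype difference of the paralogs in males was -0.25, with 15 of 21 negative, and COX6CL differed by -0.59. Without mutant male 1 it was -0.86, with 18 of 21 negative. COX6CL then differed by -1.76, COX7AL by -1.28 and COX4L by -1.24. In the mean over both sexes these 3 genes differed by -0.90, -0.64 and -0.70 without that array, in the same order. In such fits the lone mutant male is assumed to vary like the other groups.

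**Figure D5:**
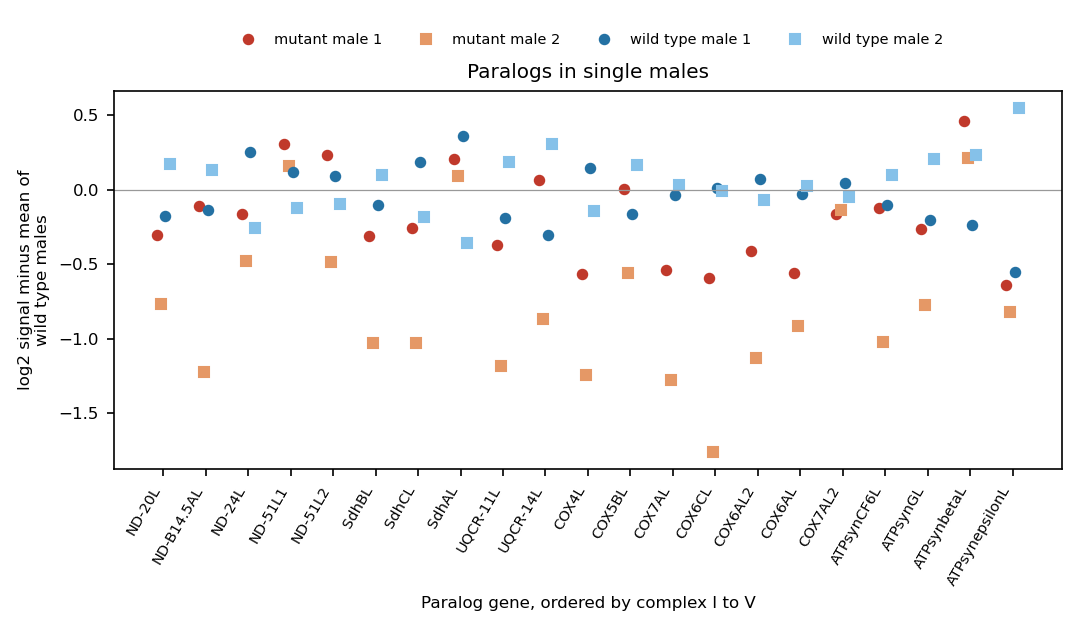
Log2 signal of the 21 paralogs in each of the 4 males, relative to the mean of the wild type males, ordered by complex. Mutant male 2 (orange squares) is the lowest male in 17 of 21 genes, down to -1.76 for COX6CL, and lies below mutant male 1 (red circles) in 20 of 21.

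Whether the genotype difference was unequal in the sexes was tested as an interaction, the difference in males minus that in females. No gene passed this test among all 11982 (0%), and so no member did. At an unadjusted p under 0.05 there were 4 members and 974 of all genes. The L paralogs had a median of -0.62, with 15 of 17 negative, and the general subunits of 0.10, with 13 of 51 negative. As the females' signals of most paralogs lay below the array medians, a genotype difference in females would be compressed, and the paralogs' interaction is then little more than their difference in males given again. For the general subunits the sign flipped with quantile normalization (-0.03) and with centring on the brighter probe sets (-0.12). COX7AL had -0.89 ± 0.32, with limits of -1.66 and -0.13, COX6CL -1.14 ± 0.48 and SdhBL -0.82 ± 0.34. ND-51, the general subunit among the 4, had 9.44 and 9.53 in mutant males against 9.07 and 9.35 in wild type males, and 9.21 and 9.50 in mutant females against 9.64 and 9.67 in wild type females. Both mutant males were above and both mutant females below their wild type counterparts, with an interaction of 0.57 ± 0.23 (adjusted p = 0.766, the same for all 4). Such an opposite arrangement with no overlap in either sex was found in 2 of 73 members (2.74%), ND-51 and SdhBL, against 5.92% of all genes.

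Other genes of mitochondrial metabolism were examined as lists. Of 10 measured respiratory subunits and carriers outside the symbol rule, 2 were higher in males and none was called for the genotype. These were knon, a testis gene of Drosophila related to an ATP synthase subunit (2.56 ± 0.11, adjusted p = 9.36e-06), and Cyt-c1L, a copy of the cytochrome c1 gene (2.87 ± 0.20, adjusted p = 9.16e-05). The gene ox, which encodes a small subunit of complex III, had 9.71 and 9.55 in mutant males against 10.09 and 10.42 in wild type males, and 9.48 and 9.64 in mutant females against 10.01 and 9.89 in wild type females. The genotypes did not overlap in either sex (-0.51 ± 0.11, adjusted p = 0.0769), and the gene was called with quantile normalization (adjusted p = 0.0333). The genes levy, cype and sun, parents of members by their subunit, had sex differences of -0.01, -0.09 and -0.18 and were not called.

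None of 10 assembly factors and none of 14 genes of mitochondrial gene expression and biogenesis was called for sex or genotype. Of 11 genes of pyruvate dehydrogenase and the tricarboxylic acid cycle, 2 were higher in males (mAcon2 by 1.59, Idh3b by 0.45) and 0 differed by genotype. All 5 measured paralogs of cycle genes were higher in males, by a median of 1.59, with mAcon2 counted in both lists. Among them Fum3, a copy of the fumarase gene, had 5.30 and 5.12 in mutant males against 6.27 and 6.42 in wild type males, and 4.13 and 4.07 in mutant females against 4.01 and 4.15 in wild type females. Both mutant males lay about 1 log2 unit below both wild type males, and the females were level. Fum3 was lower in mutant males (-1.13 ± 0.14, adjusted p = 0.0173) and over both sexes (-0.55 ± 0.10, adjusted p = 0.0355), although leaving out any single array ended the call over both sexes (adjusted p = 0.0545 to 0.136).

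Among 16 measured transporters of the mitochondrial membranes, 5 were higher and 1 was lower in males. tomboy20, a copy of an import receptor gene, differed by 3.53 ± 0.23 (adjusted p = 6.55e-05), Porin2, a copy of the outer membrane channel gene, by 2.99 ± 0.17 (adjusted p = 4.08e-05), and Ant2, an ATP and ADP carrier, by 2.52 ± 0.16 (adjusted p = 6.55e-05). The carnitine carrier gene colt was lower in mutants (-0.55 ± 0.09, adjusted p = 0.0288), a call that leaving out any single array ended (adjusted p = 0.0507 to 0.114). Of 7 mitochondrial morphology genes fzo, which acts in the fusion of sperm mitochondria and is also in the testis list, was higher in males (1.96 ± 0.15, adjusted p = 0.00016).

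Marker lists of other tissues did not separate the sexes as the paralogs did. None of 8 muscle, 5 fat body, 7 hemocyte and 7 neuronal markers was called for sex. Of 8 germline markers 2 were higher in males (bgcn by 1.35, aub by 0.52), and of 10 prepupal markers 1, Sgs1, was lower (-0.33). For the genotype, bam (0.56) and the hemocyte gene eater (1.83) were higher in mutants, and the muscle gene TpnC73F (-0.76) and the prepupal genes Sgs1, ImpE2 and ImpL1 were lower. Among the sums over these lists, those of hemocyte and prepupal markers separated the genotypes within each sex. The summed hemocyte intensity was 3768 and 1639 in mutant males against 1150 and 980 in wild type males, and 2116 and 2301 in mutant females against 1043 and 1431 in wild type females. Every mutant value lay above every wild type value. The summed prepupal intensity was 29201 and 25583 in mutant males against 40468 and 30958 in wild type males, and 23454 and 25224 in mutant females against 32598 and 28721 in wild type females. Here the mutants were the lower animals in each sex. The part of either tissue or stage in the genotype differences of the members was not tested. Summed muscle intensity was 7969 and 7540 in mutant males and 11624 and 7828 in wild type males, and 8515 and 11542 in mutant females against 8003 and 13533 in wild type females. The muscle sums of the genotypes overlapped in both sexes.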

How the data were processed

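RNA of 8 single prepupae was made into biotin cRNA by an Affymetrix protocol, per the labels, and read on 1-colour arrays. The authors deposited linear intensity values, for which the submitters' processing notes name RMA. RMA removes background, makes arrays comparable and merges the probes of a set, which compresses differences of dim probe sets. The software used and any later scaling are unknown. Of 18952 probe sets, 183 controls were left out. Values were taken to log2 and tested with limma 3.58.1 (R 4.3.3; 4 residual and 3.03 prior degrees of freedom) on 4 group means, with Benjamini-Hochberg adjustment over 18769 probe sets and a threshold of 0.05. Exact permutation tests used SciPy 1.17.1. The annotation gave 13647 probe sets 1 symbol, 402 several and 4720 none. All 73 member symbols were found in the Release 6 RefSeq table, and 4 probe sets with several symbols, 1 of them by the rule, were not used. The sources name no build, so no coordinates are printed.

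Members, gene lists and tests were chosen with earlier results of these data known. Named were all paralogs and parents, the genes with the lowest p per complex or list, and those of extreme signal. The number of arrays limits the precision. For the genotype comparison over both sexes, simulated data gave a recovery of 12% for log2 changes of 0.5, 78% for 1 and 100% for 2. False calls made up 4.61% of the calls there. These rates do not cover comparisons within a sex, which rest on 2 arrays per group, or shifts shared by many genes of an array. Alternatives covered scaling, filters, variance prior, array weights, replicate block, offset, probe sets and omission of each array.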

Additional observations from a re-analysis of the deposited data

Results flagged for a closer look

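In 7 of the 113 genes named by rule both mutant females lay on one side of both wild type females and both mutant males on the opposite side of both wild type males. Over all 11982 genes the same was seen in 709 (5.92%), and among the 73 members in 2 (2.74%), so the count is near or below the share in all genes. None passed the test of the difference between the sexes, and groups of 2 arrays allow no check for outlying samples. The genotype difference in males minus that in females was -0.82 for SdhBL and 0.57 for ND-51 among the members. It was -1.36 for betaTub85D, -1.07 for ocn and -0.84 for CG10252, which are testis markers. It was -1.04 for Scsalpha2, a copy of a tricarboxylic acid cycle gene, and 0.58 for para, a neuronal sodium channel gene.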

How the results depend on the processing

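The 18 alternatives left the direction of all 82 sex and genotype results of the 41 members named by rule unchanged where they were called, and 11 of them changed their call under at least 1 alternative, in 19 of 1456 values by losing it and in 8 by gaining it. For the genotype, over both sexes and in males, no member was called under any alternative but the omission of mutant male 1, which leaves a lone mutant male. In males that omission also raised the calls lower in mutants over all probe sets. In females and for the interaction the count of members called stayed at 0. For sex, leaving out single arrays gave 17 to 19 members called (10 to 18 in double mutants, 15 to 18 in wild type). General subunits called for sex numbered 7 with median centring (1 in wild type), and 1 with the mean of all probe sets of a gene, in both genotypes together and in each. ND-51L2 and SdhAL each lost their sex call under 8 alternatives (adjusted p up to 0.144) and ND-B14.5AL under 3 (0.0541 to 0.0612). Leaving out the dimmer probe sets (9384 kept, by mean over all 8 arrays) left 14 paralogs, all called. Since 18 of the 21 female means lay below the female array medians, most of these 14 passed the filter through their male signal. Their calls under this setting are therefore no further support. Over all probe sets, 1894 were called for sex (1518 higher, 376 lower), 3476 with quantile normalization (1586, 1890) and 12522 with median centring (1444, 11078). For the genotype 524 were called, and 247 to 290 without a female array. Same-numbered arrays deviated together in some group pairs and apart in others (correlations of -0.304 to 0.413). No pairing by number common to all groups was seen, but this check cannot exclude a batch shared by some of the arrays. With the replicate block 20 members were called for sex and 0 for the genotype (447 probe sets). The causes of these changes were not tested.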

Other observations

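COX7C, a general subunit of complex IV, had a second, dim probe set that did not represent it above. Its log2 signal was 6.38 and 5.86 in mutant males and 6.59 and 6.79 in wild type males, against 3.52 and 3.75 in mutant females and 3.97 and 3.49 in wild type females. Every male lay far above every female, by 2.72 (limma adjusted p = 5.2e-05), whereas the brighter probe set of COX7C differed by -0.09 (adjusted p = 0.68). With the mean of both probe sets COX7C was called for sex (1.32, adjusted p = 0.000409). Which transcript the dim probe set detects was not tested. The other 7 additional probe sets, of ATPsynbeta, ATPsyngamma, COX7B, ND-ACP and ND-B17, were not called for sex or genotype.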
